A study of Mus musculus with 6 samples.

Results

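The 40 genes described here code for the machinery that brings proteins into the endoplasmic reticulum (ER), folds them there and sends them on to the Golgi apparatus. They were chosen by name, with earlier results of these data known. A gene counted as measured where the annotation of the array gave exactly 1 symbol to at least 1 of its probe sets. This held for 39 of the 40 genes, through 87 of the 45101 probe sets on the array, while Sec61g, the smallest translocon subunit, had no probe set of 1 symbol and has no value here. All 39 genes, and 82 of the 87 probe sets, passed the filter on low signal and were tested, beside 12326 genes and 25233 probe sets tested in all.

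RNA was measured on 6 Affymetrix Mouse Genome 430 2.0 arrays, 2 each for mandible with its teeth, for calvaria without its sutures and for ulna without soft tissue and epiphyses. All came from skeletally mature male mice of 24 to 26 grams, which the methods name as Black CD57. The methods describe a pilot of 10 such mice in 2 groups, but how these map to the arrays, and whether RNA was pooled, is not given in the sources used here. A p-value thus reflects only how far the arrays of a site lay apart, possibly for technical reasons, and with 2 arrays per site the precision is limited. Values are MAS5 signals, an intensity on a linear scale that depends on the probes. A signal is thus compared between sites for 1 gene and not between genes. Where signals of a list are summed, the deposited signals are used, and bright probe sets weigh most in the sum. Log2 differences are of signals divided by each array's median (30.6 to 33.6), fitted with limma. A gene passed the test at an adjusted p under 0.05, and was called where it also differed by at least 2-fold.

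A protein bound for export is met by the signal recognition particle as it is made, docks at the ER and is threaded through the translocon, where signal peptidase trims off its leader. Chaperones and disulfide isomerases fold it, the COPII coat packs it into vesicles that bud from the ER, and KDEL receptors return escaped ER residents from the Golgi. Osteoblasts, odontoblasts and ameloblasts are known for heavy secretion: osteoblasts and odontoblasts export large amounts of type I collagen, whose stiff trimers need COPII carriers of unusual size. When folding falls behind, the unfolded protein response raises many of these genes through short DNA elements in their promoters.

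Of the 40 genes, measured or not, 35 had a RefSeq promoter on the build GRCm38.p6, taken as 300 bases from 250 before to 50 after the start of the gene. Each was searched on both strands for the ER stress response element (CCAAT and CCACG with 9 bases of any kind between them), for the second such element (ATTGG and CCACG with 1 base between them) and for the unfolded protein response core TGACGTGG. The letters CCACG also open CCACGTCA, the core read on the opposite strand, so the elements can overlap. The core stood in 3 of the 35 promoters (8.57%), those of Kdelr3, Sec24d and Sec23a, and in 193 of 27025 genes (0.714%). These stretches are shown because Kdelr3 and Sec24d had the largest differences from ulna among the members, and Sec23a is the coat partner of Sec24. They run from 80 bases before to 20 after the start, with the core in capitals.
Kdelr3 (chr15:79516328-79516427, plus strand): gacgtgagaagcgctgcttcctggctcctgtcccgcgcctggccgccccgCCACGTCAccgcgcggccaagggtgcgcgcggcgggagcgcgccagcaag
Sec24d (chr3:123267416-123267515, plus strand): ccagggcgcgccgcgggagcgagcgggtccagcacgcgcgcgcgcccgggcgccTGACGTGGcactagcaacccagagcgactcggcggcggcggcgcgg
Sec23a (chr12:59011998-59012097, minus strand): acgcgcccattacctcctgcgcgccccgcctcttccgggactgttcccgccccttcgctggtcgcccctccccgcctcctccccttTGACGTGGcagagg

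In Kdelr3 the core lay on the opposite strand, 30 bases before the start, in Sec24d it lay 26 bases before the start, and in Sec23a it overlapped the first bases after the start. The first ER stress response element stood in 6 of the 35 promoters (17.1%), those of Hspa5, Hsp90b1, Calr, Canx, Dnajc3 and Pdia6, against 37 of 27025 genes (0.137%). The second element stood in 1 of the 35, that of Dnajb11, against 12 genes in all (0.0444%). Of the 6, the chaperones Hspa5, Calr and Hsp90b1 are shown, with the fixed letters of each match in capitals, CGTGG and ATTGG where it read on the opposite strand. Hsp90b1 held 2 matches.
Hspa5 (chr2:34771990-34772089, plus strand): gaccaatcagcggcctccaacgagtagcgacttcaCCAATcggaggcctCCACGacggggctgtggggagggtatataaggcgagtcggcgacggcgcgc
Calr (chr8:84847012-84847111, minus strand): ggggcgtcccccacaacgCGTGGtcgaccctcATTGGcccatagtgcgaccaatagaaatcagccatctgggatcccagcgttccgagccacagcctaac
Hsp90b1 (chr10:86705525-86705664, minus strand): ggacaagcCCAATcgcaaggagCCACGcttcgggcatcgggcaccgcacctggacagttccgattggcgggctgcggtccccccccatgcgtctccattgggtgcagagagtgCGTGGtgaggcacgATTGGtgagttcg

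A match of letters is a description and not a binding site. The core TGACGTGG and the first ER stress response element were found together in none of the member promoters.

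More of the ER genes lay above ulna than below it in both skull bones, mostly by less than 2-fold. In mandible 19 of the 39 genes passed the test as higher than ulna and 5 as lower, where 20.0% of all tested genes were higher and 28.2% lower. In calvaria 22 passed as higher and 2 as lower, where 16.0% of all tested genes were higher and 18.5% lower. The median log2 difference of the 39 genes was 0.22 for mandible and 0.47 for calvaria, and that of all tested genes was -0.09 for mandible and -0.05 for calvaria. Both comparisons use the same ulna arrays. With the signals as deposited, with quantile normalization or with scaling to the 75th percentile, mandible had 25 to 27 genes higher and 2 or 3 lower, and calvaria had 22 to 30 higher and 2 lower. The 5 lower in mandible were Spcs3, Sdf2l1, Sec24c, Srp9 and Hspa5, and only Spcs3 of these passed whichever array was left out. It alone of the 5 was left without mandible replicate 1, when Sec61b passed as lower too, and without ulna replicate 2, while 3 of the 5 were left without mandible replicate 2 or ulna replicate 1.

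Few of these differences reached 2-fold. In mandible 4 genes were called higher than in ulna, Kdelr3, Sec24d, Pdia4 and Kdelr2, and 1 was called lower, Spcs3, while 11.0% of all tested genes were called higher and 11.0% lower. In calvaria 5 were called higher, Kdelr3, Sec24d, Pdia4, Kdelr2 and Sec31a, where 8.43% of all tested genes were called higher. Kdelr3 and Pdia4 lay below the array median on both ulna arrays. They passed the filter on low signal through the skull arrays alone, where they were high. No member was called lower in calvaria by limma, where 4.59% of all tested genes were. At an unadjusted p under 0.05, 3 members were lower, and the share of all tested genes at that limit was not counted. The called count of 5 in calvaria became 2, Kdelr3 and Sec24d, without calvaria replicate 2. Under each of the other scalings Spcs3 fell just short of 2-fold in mandible, so that 0 members were called lower, beside 4 called higher, or 5 with quantile normalization. Over all tested genes, the calls in mandible were 1357 higher and 1355 lower, against 1545 higher and 1084 lower with the signals as deposited.

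**Figure D1:**
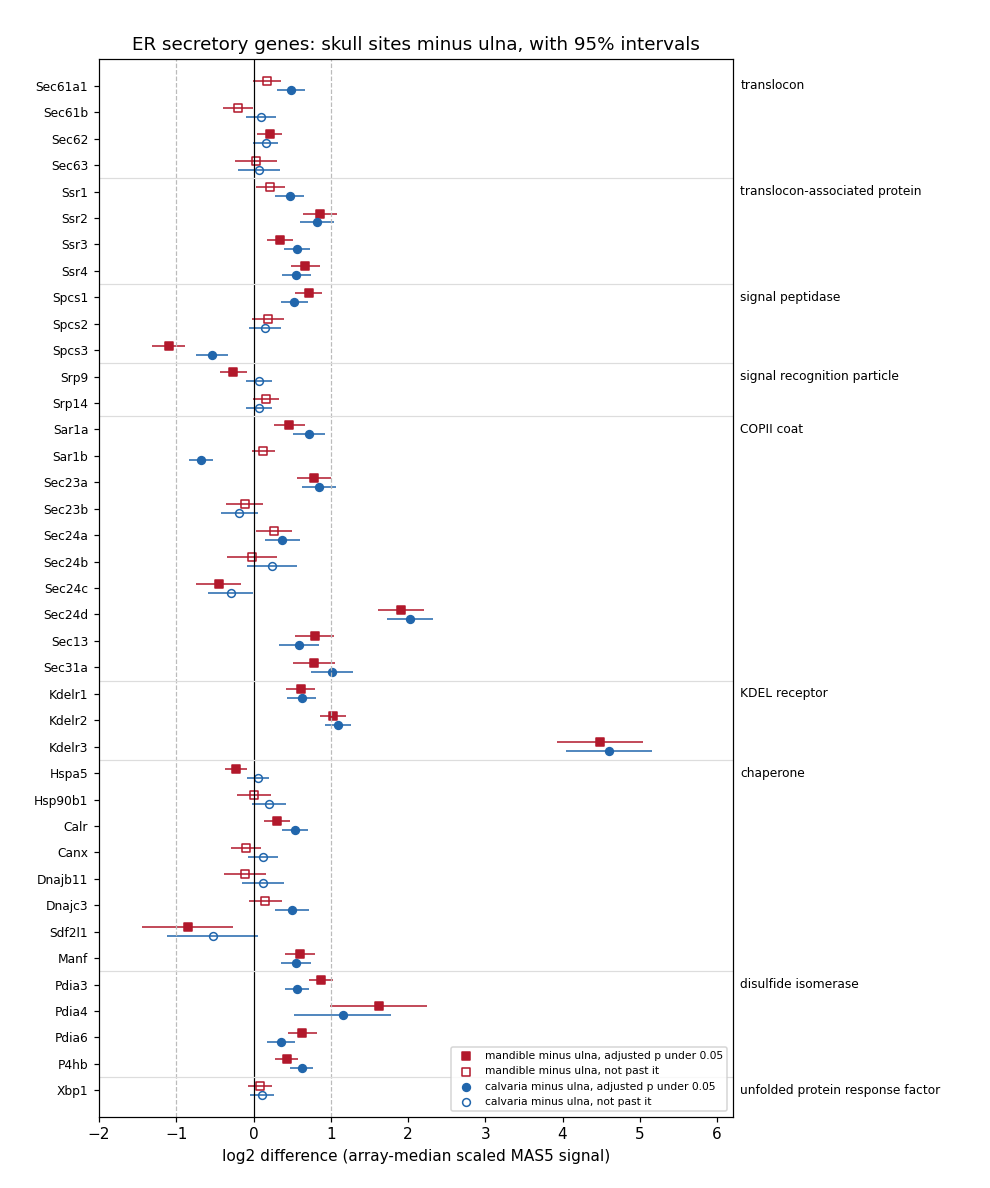
The log2 difference of 39 ER secretory genes, mandible minus ulna (red squares) and calvaria minus ulna (blue circles), on the horizontal axis, with 95% intervals; genes run down the page by role, filled symbols passed an adjusted p of 0.05 and dashed lines mark 2-fold. Kdelr3 stands at 4.48 and 4.60, and most other genes lie between 0 and 1.

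Markers of several cell types moved with the same comparisons. The summed signal of the 9 tested osteoblast markers was 47285 to 48728 in mandible, 48735 to 54133 in calvaria and 8814 to 8905 in ulna, and all 9 were called higher in both skull bones. Osteoclast markers (6 tested) summed to 6132 to 6391 in mandible, 11505 to 11816 in calvaria and 2705 to 3196 in ulna, and 6 osteocyte markers to 9576 to 9614 in mandible, 6928 to 7607 in calvaria and 3836 to 3914 in ulna. The sums of these bone cell markers were thus higher in both skull bones than in ulna, but not each osteoclast and osteocyte marker was. Of the 6 osteoclast markers, 3 were called higher in mandible, where 1 passed the test as lower, and 4 in calvaria. Of the 6 osteocyte markers, 2 were called higher in mandible and 4 in calvaria, where 1 passed the test as lower. The 8 tooth genes summed to 64417 to 65607 in mandible, 56.3 to 76.8 in calvaria and 77.1 to 90.8 in ulna. Epithelial markers (8 tested) summed to 5198 to 5199 in mandible, 213 to 227 in calvaria and 325 to 344 in ulna. The 11 skeletal muscle markers summed to 48928 to 50158 in mandible, 7012 to 7140 in calvaria and 55141 to 55341 in ulna. Tooth and epithelial sums were thus highest in mandible, and muscle was lowest in calvaria.

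Neuron and glia markers (4 tested) summed to 992 to 1030 in mandible, 1269 to 1316 in calvaria and 294 to 301 in ulna. In calvaria all 4 were called higher than ulna, and in mandible 2 were called higher and 1 lower. Meningeal markers (5 tested) summed to 502 to 520 in mandible, 1670 to 2181 in calvaria and 228 to 229 in ulna, with 1 called higher in mandible and 2 in calvaria, and cartilage markers (5 tested) to 1107 to 1246 in mandible, 378 to 410 in calvaria and 262 to 317 in ulna. For plasma cells, also heavy secretors, 7 tested markers summed to 2058 to 2197 in mandible, 1874 to 2033 in calvaria and 3547 to 3957 in ulna. Jchain, the joining chain of secreted antibody, made up most of that sum in ulna, and the list was mixed, with 2 called higher and 3 lower in mandible, and 0 called higher and 1 lower in calvaria, where the median log2 difference was 0.01. Erythroid markers (6 tested) summed to 3482 to 3892 in mandible, 6093 to 6569 in calvaria and 10048 to 10565 in ulna. The part of each cell type in the results was not tested, and in whole bone more cells of a type and more RNA per cell cannot be told apart. The 39 ER genes themselves summed to 37480 to 37754 in mandible, 38219 to 38224 in calvaria and 27742 to 28139 in ulna, and all 4 skull values lay above both ulna values.

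The KDEL receptors were higher than ulna in both skull bones for all 3 members. They bind the KDEL tail of ER residents in the Golgi and carry them back. Kdelr3 had signals of 479 and 464 in mandible, 487 and 512 in calvaria, and 27.7 and 13.7 in ulna. Both ulna values lay below the array median, so the ratio is uncertain: with the array median in their place, Kdelr3 was at least 14.1-fold higher in mandible and at least 15.4-fold higher in calvaria. The fitted log2 difference was 4.48 ± 0.25 (SE, adjusted p = 2.28e-07) in mandible and 4.60 ± 0.25 (adjusted p = 2.24e-07) in calvaria.

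Kdelr2, a paralogue whose loss in humans causes a brittle bone disorder, had signals of 3219 and 3398 in mandible, 3138 and 3609 in calvaria, and 1550.05 and 1441 in ulna. Relative to ulna it was higher by 1.03 ± 0.08 (SE, adjusted p = 2.01e-06) in mandible and 1.09 ± 0.08 (adjusted p = 1.86e-06) in calvaria, just past 2-fold. It fell short of 2-fold in mandible without mandible replicate 2 (0.98) or ulna replicate 2 (0.99), and in calvaria without calvaria replicate 2 (0.99). Its second probe set gave 0.81 in mandible and 0.94 in calvaria. Kdelr1 had signals of 701 and 681 in mandible, 692 and 662 in calvaria, and 427 and 408 in ulna, so neither skull bone overlapped ulna. Its log2 difference was 0.61 ± 0.08 (adjusted p = 0.000161) in mandible and 0.62 ± 0.08 (adjusted p = 0.000242) in calvaria.

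**Figure D2:**
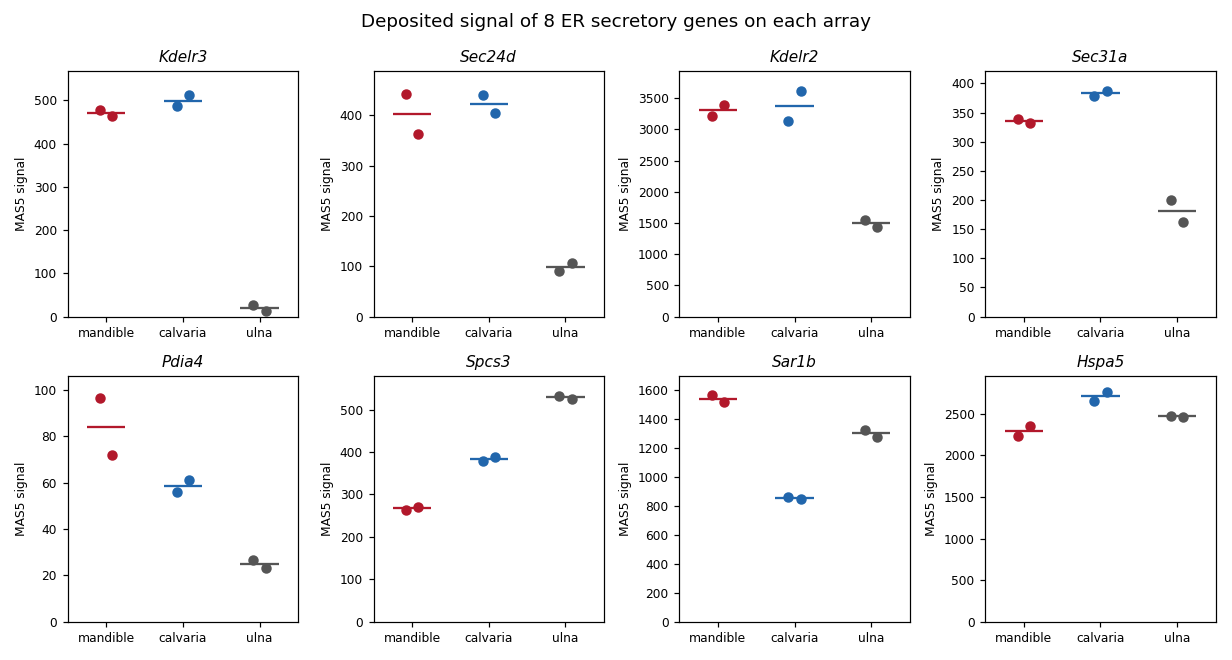
Deposited MAS5 signal (vertical axis, linear, from 0) of 8 ER genes on each of the 2 mandible, 2 calvaria and 2 ulna arrays; points are arrays and lines are means. Kdelr3, Sec24d, Kdelr2, Sec31a and Pdia4 are lowest in ulna, Spcs3 is lowest in mandible, Sar1b is lowest in calvaria and Hspa5 is near level.

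The COPII coat, which buds cargo vesicles from the ER, was split among its paralogues. Of its 10 genes, 5 passed the test as higher and 1 as lower in mandible, and 6 as higher and 1 as lower in calvaria. In mandible 20.0% of all tested genes were higher and 28.2% lower, and in calvaria 16.0% and 18.5%. The median log2 difference of the coat was 0.36 in mandible and 0.48 in calvaria. Sec24d, a cargo-binding subunit linked in humans to a syndromic form of brittle bone disease, had signals of 443 and 363 in mandible, 440 and 404 in calvaria, and 91.1 and 106 in ulna. Skull bones and ulna did not overlap, and the log2 difference was 1.91 ± 0.14 (SE, adjusted p = 1.20e-06) in mandible and 2.02 ± 0.14 (adjusted p = 1.16e-06) in calvaria. Its paralogues gave smaller values. Sec24a gave 0.26 (adjusted p = 0.0655) in mandible and 0.37 (adjusted p = 0.0204) in calvaria, which no longer passed without either array of calvaria or ulna (adjusted p = 0.0606 to 0.0897). Sec24b gave -0.02 (adjusted p = 0.933) in mandible and 0.24 (adjusted p = 0.249) in calvaria, and the mandible value turned positive (0.09 to 0.13) under the other scalings. Sec24c was lower in mandible, at -0.45 (adjusted p = 0.0170), and gave -0.30 (adjusted p = 0.117) in calvaria. The mandible difference of Sec24c no longer passed the test with the signals as deposited (adjusted p = 0.0584) or with quantile normalization (adjusted p = 0.0670).

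Sec23a and Sec23b, the inner coat partners of Sec24, also took different values. Sec23a, which is mutated in a human disorder of late-closing skull sutures, had signals of 521 and 557 in mandible, 542 and 550.1 in calvaria, and 273 and 305 in ulna. Both skull bones lay above ulna, by 0.78 ± 0.10 (SE, adjusted p = 0.000101) in mandible and 0.84 ± 0.10 (adjusted p = 0.000100) in calvaria. Sec23b had signals of 301 and 306 in mandible, 279 and 282 in calvaria, and 288 and 318 in ulna. It gave -0.11 (adjusted p = 0.433) in mandible, or 0.00 to 0.02 under the deposited and quantile scalings, and -0.19 (adjusted p = 0.235) in calvaria.

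The outer coat is built from Sec13 and Sec31a. Sec31a had signals of 339 and 333 in mandible, 379 and 387 in calvaria, and 201 and 162 in ulna, with no overlap of ulna and skull. The log2 difference was 0.78 ± 0.12 (SE, adjusted p = 0.000399) in mandible and 1.01 ± 0.12 (adjusted p = 0.000110) in calvaria, where it lay under 2-fold without ulna replicate 2 (0.87) and just under it without calvaria replicate 2 (0.997). Sec13 had signals of 693 and 574 in mandible, 573 and 496 in calvaria, and 355 and 319 in ulna. It rose by 0.79 ± 0.12 (adjusted p = 0.000255) in mandible and by 0.59 ± 0.12 (adjusted p = 0.00299) in calvaria.

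Sar1a and Sar1b, the GTPases that start coat assembly, went different ways in calvaria. Sar1a had signals of 774 and 731 in mandible, 826 and 916 in calvaria, and 478 and 528 in ulna. It was higher by 0.46 ± 0.09 (SE, adjusted p = 0.00204) in mandible and by 0.71 ± 0.09 (adjusted p = 0.000185) in calvaria. Sar1b, which in humans is needed for chylomicron export from the gut, had signals of 1568 and 1519 in mandible, 862 and 851 in calvaria, and 1328 and 1279 in ulna. Calvaria lay below both other sites on both arrays. The log2 difference from ulna was 0.13 ± 0.07 (adjusted p = 0.161) in mandible and -0.68 ± 0.07 (adjusted p = 2.76e-05) in calvaria. The difference between the paralogues was not tested.

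The disulfide isomerases, which form and rearrange disulfide bonds, were higher in both skull bones for all 4 members. Their median log2 difference was 0.75 in mandible and 0.59 in calvaria. Pdia4 had low signals throughout, 96.4 and 71.8 in mandible, 56.1 and 61.1 in calvaria, and 26.7 and 23.4 in ulna, the last below the array median. Its log2 difference was 1.62 ± 0.28 (SE, adjusted p = 0.000859) in mandible and 1.15 ± 0.28 (adjusted p = 0.0105) in calvaria, and with the array median in place of the ulna signals it was at least 2.49-fold higher in mandible and at least 1.80-fold higher in calvaria. Without calvaria replicate 2 the calvaria difference no longer passed the test (adjusted p = 0.0657).

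Pdia3, the partner of calnexin and calreticulin on glycoproteins, had signals of 1555 and 1535 in mandible, 1198 and 1221 in calvaria, and 767 and 792 in ulna. The sites formed 3 separate steps, with log2 differences from ulna of 0.87 ± 0.07 (SE, adjusted p = 3.04e-06) in mandible and 0.56 ± 0.07 (adjusted p = 0.000149) in calvaria. Pdia6, which acts on the folding sensors of the ER among other substrates, gave 0.63 ± 0.08 (adjusted p = 0.000141) in mandible and 0.36 ± 0.08 (adjusted p = 0.00909) in calvaria, which came to an adjusted p of 0.0502 without calvaria replicate 1. P4hb is both a general isomerase and the beta subunit of collagen prolyl 4-hydroxylase. It had signals of 1847 and 1818 in mandible, 2120.37 and 1960.5 in calvaria, and 1254 and 1256 in ulna, and was higher by 0.43 ± 0.07 (adjusted p = 0.000437) in mandible and by 0.62 ± 0.07 (adjusted p = 5.00e-05) in calvaria.

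The ER chaperones were mixed. Of 8 members, 2 passed the test as higher and 2 as lower in mandible, with a median log2 difference of -0.05 that turned positive (0.06 to 0.09) under the other scalings. In calvaria 3 were higher and 0 lower, with a median of 0.16, or 6 higher with quantile normalization (median 0.31), when Hspa5, Hsp90b1 and Canx also passed. The share in mandible, 25.0% each way, stood beside 20.0% of all tested genes higher and 28.2% lower. In calvaria 16.0% of all tested genes were higher and 18.5% lower. Hspa5 (BiP), the main Hsp70 of the ER, had signals of 2232 and 2351 in mandible, 2654 and 2758 in calvaria, and 2468 and 2463 in ulna. The log2 difference was -0.22 ± 0.06 (SE, adjusted p = 0.0150) in mandible, which did not pass the test under any of the other scalings (adjusted p = 0.137 to 0.405), and 0.06 ± 0.06 (adjusted p = 0.542) in calvaria. Hsp90b1 (Grp94), the Hsp90 of the ER, gave 0.01 (95% interval -0.21 to 0.23) in mandible and 0.20 (-0.02 to 0.43) in calvaria. Canx, the membrane lectin calnexin, gave -0.10 (-0.29 to 0.10) in mandible, or 0.01 to 0.05 under the other scalings, and 0.12 (-0.08 to 0.31) in calvaria.

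Calreticulin (Calr), the soluble counterpart of calnexin, was higher, with signals of 1444 and 1462 in mandible, 1729 and 1579 in calvaria, and 1044 and 1119 in ulna. The log2 difference was 0.31 ± 0.08 (SE, adjusted p = 0.00708) in mandible, which did not pass without ulna replicate 1 (adjusted p = 0.0598), and 0.54 ± 0.08 (adjusted p = 0.000358) in calvaria. Manf, a secreted ER stress protein that binds Hspa5, had signals of 1193 and 1059.62 in mandible, 993 and 1114 in calvaria, and 683 and 682 in ulna, and was higher by 0.60 ± 0.09 (adjusted p = 0.000239) in mandible and by 0.55 ± 0.09 (adjusted p = 0.000780) in calvaria. Sdf2l1, which keeps client proteins soluble together with Dnajb11, was dim, with 44.2 and 43.7 in mandible, 63.8 and 44.8 in calvaria, and 76.1 and 70.4 in ulna. It gave -0.85 in mandible (SE 0.27, adjusted p = 0.0243), which failed the test whichever array of mandible or ulna was left out (adjusted p = 0.0682 to 0.0993), and -0.53 (adjusted p = 0.167) in calvaria.

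Of the Hsp40 partners of Hspa5, Dnajc3, which also restrains the stress kinase Perk, gave 0.15 (adjusted p = 0.237) in mandible and rose by 0.50 ± 0.10 (SE, adjusted p = 0.00302) in calvaria. Dnajb11 gave -0.11 (adjusted p = 0.514) in mandible, or 0.01 to 0.05 under the deposited and quantile scalings, and 0.12 (adjusted p = 0.499) in calvaria. Xbp1, the transcription factor whose spliced form drives many of these genes, had signals of 1400.46 and 1427 in mandible, 1453 and 1349 in calvaria, and 1263 and 1203 in ulna. Xbp1 gave 0.08 ± 0.07 (adjusted p = 0.395) in mandible and 0.11 ± 0.07 (adjusted p = 0.293) in calvaria. Its dimmer probe sets gave 0.23 (adjusted p = 0.0314), 0.06 (adjusted p = 0.677) and 0.27 (adjusted p = 0.229) in mandible. In calvaria they gave 0.07 (adjusted p = 0.542), 0.09 (adjusted p = 0.533) and 0.64 (adjusted p = 0.0166). The array signal used here does not separate the spliced and unspliced forms of Xbp1.

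Set beside the promoter matches above, the 3 genes with the core TGACGTGG, Kdelr3, Sec24d and Sec23a, gave 4.48, 1.91 and 0.78 in mandible and 4.60, 2.02 and 0.84 in calvaria. The 6 genes with the first ER stress response element ranged from -0.22 (Hspa5) to 0.63 (Pdia6) in mandible and from 0.06 (Hspa5) to 0.54 (Calr) in calvaria. Dnajb11, with the second element, lay within that range in both bones. These are values side by side, and no test was made of them.

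At the entry to the ER, the translocon-associated protein (TRAP) complex, which aids the insertion of some nascent chains, was higher for 3 of 4 members in mandible and 4 of 4 in calvaria. Ssr2 had signals of 483 and 451 in mandible, 441 and 444 in calvaria, and 247 and 228 in ulna. It was higher by 0.86 ± 0.10 (SE, adjusted p = 4.34e-05) in mandible, or 1.01 with quantile normalization, and by 0.82 ± 0.10 (adjusted p = 0.000104) in calvaria. Ssr4 gave 0.67 (adjusted p = 7.21e-05) in mandible and 0.56 (adjusted p = 0.000481) in calvaria. Ssr3 gave 0.35 (adjusted p = 0.00399) in mandible and 0.56 (adjusted p = 0.000280) in calvaria. Ssr1 gave 0.22 (adjusted p = 0.0626) in mandible, where it passed under each of the other scalings, and 0.47 (adjusted p = 0.00194) in calvaria.

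Of the 4 measured translocon members, 1 passed the test as higher in each skull bone and 0 as lower, or 2 in mandible under each of the other scalings and 3 in calvaria with quantile normalization. Sec61a1, the pore subunit, had signals of 775 and 820 in mandible, 988 and 934 in calvaria, and 681 and 625 in ulna. It gave 0.17 (adjusted p = 0.118) in mandible and rose by 0.48 ± 0.08 (SE, adjusted p = 0.00127) in calvaria. Its dimmer probe sets gave 0.39, 0.01, 0.23, 0.32 and 0.21 in calvaria, none past the test (adjusted p = 0.0763 to 0.986). In mandible they ran from -0.25 to 0.53, also without passing. Sec61b gave -0.20 (adjusted p = 0.0927) in mandible and 0.10 (adjusted p = 0.445) in calvaria. Sec62 and Sec63 help proteins through the pore after or during translation. Sec62 gave 0.21 (adjusted p = 0.0425) in mandible, which failed the test whichever array of mandible or ulna was left out (adjusted p = 0.0970 to 0.148), and 0.15 (adjusted p = 0.148) in calvaria. Sec63 gave 0.03 (adjusted p = 0.854) in mandible and 0.07 (adjusted p = 0.709) in calvaria. The signal recognition particle had 2 members. Srp9 fell by 0.26 in mandible (SE 0.08, adjusted p = 0.0190), which did not pass under the other scalings (adjusted p = 0.125 to 0.152), and gave 0.07 (adjusted p = 0.52) in calvaria. Srp14 gave 0.16 (adjusted p = 0.116) in mandible and 0.08 (adjusted p = 0.506) in calvaria. Its dimmer probe sets gave 0.17 (adjusted p = 0.0664), 0.57 (adjusted p = 0.000126) and 0.60 (adjusted p = 0.000389) in mandible. In calvaria they gave 0.08 (adjusted p = 0.457), 0.35 (adjusted p = 0.00516) and 0.23 (adjusted p = 0.0838).

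Subunits of signal peptidase went in opposite directions. Spcs3, an essential subunit, had signals of 264 and 271 in mandible, 379 and 388 in calvaria, and 533 and 524 in ulna, in 3 separate steps. The log2 difference was -1.10 ± 0.09 (SE, adjusted p = 5.04e-06) in mandible, or -0.97 to -0.99 under the other scalings, and -0.54 ± 0.09 (adjusted p = 0.00147) in calvaria. Spcs1, an accessory subunit, had signals of 2018 and 1836 in mandible, 1648 and 1631 in calvaria, and 1024 and 1139 in ulna. It was higher by 0.72 ± 0.08 (adjusted p = 3.15e-05) in mandible and by 0.53 ± 0.08 (adjusted p = 0.000514) in calvaria. Spcs2 gave 0.19 (adjusted p = 0.125) in mandible and 0.15 (adjusted p = 0.258) in calvaria. Its dimmer probe set gave 0.39 (adjusted p = 0.00365) in mandible and 0.03 (adjusted p = 0.828) in calvaria. Both catalytic subunits were on the wider list described below, where Sec11c had signals of 552 and 487 in mandible, 926 and 977 in calvaria, and 1183 and 1193 in ulna. Sec11c fell by 1.31 in mandible (SE 0.08, adjusted p = 5.49e-07) and by 0.40 in calvaria (adjusted p = 0.00464). Its counterpart Sec11a, named after its values were seen, was higher by 0.36 in mandible (adjusted p = 0.00343) and by 0.39 in calvaria (adjusted p = 0.00365).

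Between the skull bones none of the 39 ER genes differed by as much as 2-fold. In mandible against calvaria limma called 0 of the 39 higher and 0 lower, where 5.14% of all tested genes were called higher and 4.02% lower. At an unadjusted p under 0.05, 4 were higher and 12 lower in mandible, but the share of all tested genes at that limit was not counted. For 38 of the 39 the 95% interval lay within 2-fold either way, and in the median it reached 0.19 to either side on the log2 scale. The exception was Pdia4, at 0.47 with an interval of -0.16 to 1.09. The median log2 difference of the 39 was -0.11, that of all tested genes -0.09.

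At the adjusted p alone, 3 of the 39 were higher in mandible and 6 lower, where 10.5% of all tested genes were higher and 16.3% lower. The 3 were Sar1b (0.81 ± 0.07 SE, adjusted p = 1.43e-05), Pdia3 (0.31 ± 0.07, adjusted p = 0.00867) and Pdia6 (0.28 ± 0.08, adjusted p = 0.0403). The lower ones were Spcs3 (-0.56, adjusted p = 0.00159), Dnajc3 (-0.35, adjusted p = 0.0281), Srp9 (-0.33, adjusted p = 0.0103), Sec61a1 (-0.31, adjusted p = 0.0213), Sec61b (-0.30, adjusted p = 0.0347) and Hspa5 (-0.28, adjusted p = 0.00892). Dnajc3 did not pass under any of the other scalings (adjusted p = 0.0509 to 0.0591), nor Sec61b with the signals as deposited (0.0670) or the 75th percentile (0.0730). Sar1b and Spcs3 passed whichever array was left out, and each of the others lost the test in at least 1 such fit. Without calvaria replicate 1 the counts were 1 higher and 2 lower, without calvaria replicate 2 they included 2 lower, and without mandible replicate 1 they included 3 lower. Kdelr3 gave -0.12 (95% interval -0.68 to 0.43), Sec24d -0.11 (-0.41 to 0.19) and Kdelr2 -0.07 (-0.24 to 0.11). The tooth, epithelial and muscle markers, given above, were higher in mandible, and their part in these values was not tested.

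**Figure D3:**
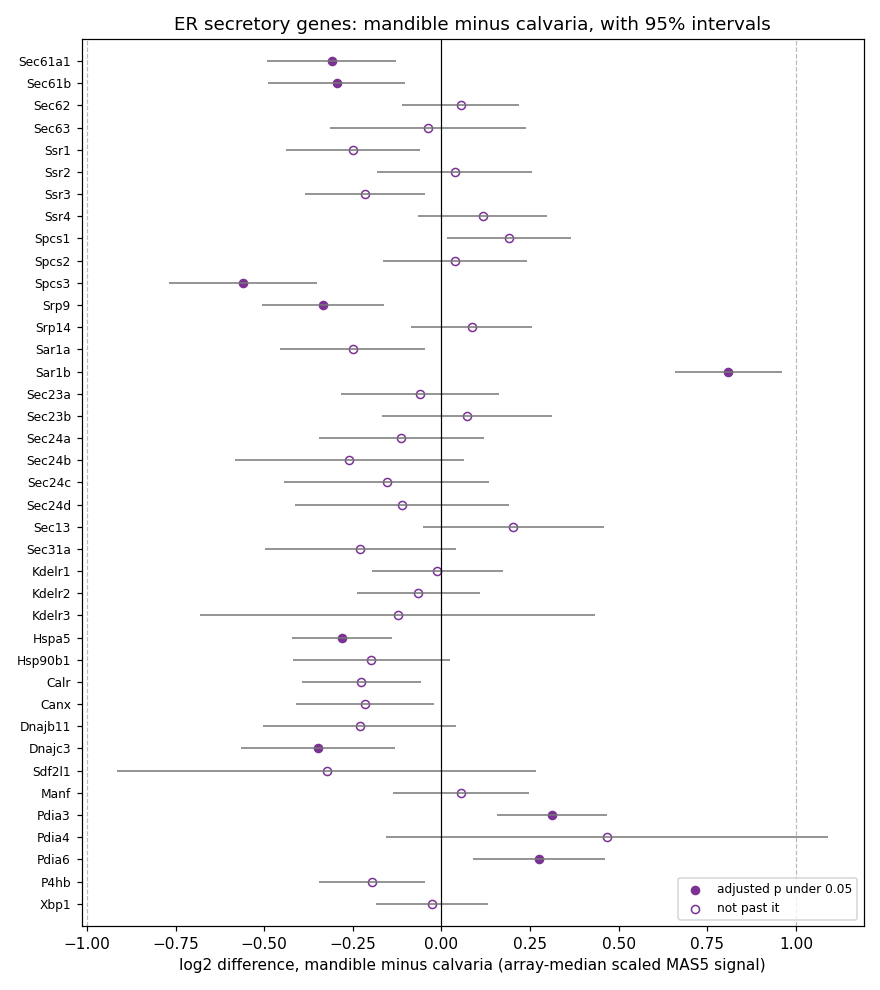
The log2 difference of the 39 ER genes, mandible minus calvaria, with 95% intervals; filled points passed an adjusted p of 0.05 and dashed lines mark 2-fold. All points lie between -0.56 (Spcs3) and 0.81 (Sar1b).

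Several probe sets read most of these genes, and they did not always give 1 answer. Of the 39 genes, 20 had several tested probe sets, 63 in all. In mandible against ulna the probe sets of 11 genes were all above 0, those of 3 all below and those of 6 on both sides. In calvaria against ulna they were all above 0 for 13, all below for 1 and on both sides for 6. For Sec62 in mandible, the brightest probe set passed the test as higher (0.21), and another passed it as lower (-0.81, adjusted p = 0.000538). In calvaria that other one gave -0.35 (adjusted p = 0.0685), and a dimmer Sec62 probe set passed as higher (0.82, adjusted p = 0.00686). For Dnajc3 in mandible, the brightest gave 0.15 and another passed as lower (-0.58, adjusted p = 0.00632). For Sec63 in calvaria, the brightest gave 0.07 while 2 dimmer ones passed as higher, at 0.51 (adjusted p = 0.0123) and 0.91 (adjusted p = 0.00168). The same 2 passed as higher in mandible, at 0.37 (adjusted p = 0.0357) and 0.52 (adjusted p = 0.0241), and the other Sec63 probe sets did not pass. For Hspa5 the other 2 gave -0.05 and -0.34 in mandible and -0.03 and -0.08 in calvaria, none past the test. In mandible against calvaria the probe sets were all above 0 for 3 genes, all below for 5 and on both sides for 12. The 12 include Sec61a1 and Dnajc3. A dimmer probe set each of Spcs1 (0.32), Spcs2 (0.36) and Srp14 (0.37) passed as higher there. A dimmer one each of Sec61a1 (-0.47), Sec62 (-0.46) and Dnajc3 (-0.66) passed as lower. The second Srp9 probe set gave -0.02 (adjusted p = 0.92). In all, 7 genes were read by probe sets whose suffix (_s_at or _x_at) marks probes that may also match transcripts of other genes, Sec62, Sec63, Ssr3, Ssr4, Srp14, Canx and Xbp1.

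**Figure D4:**
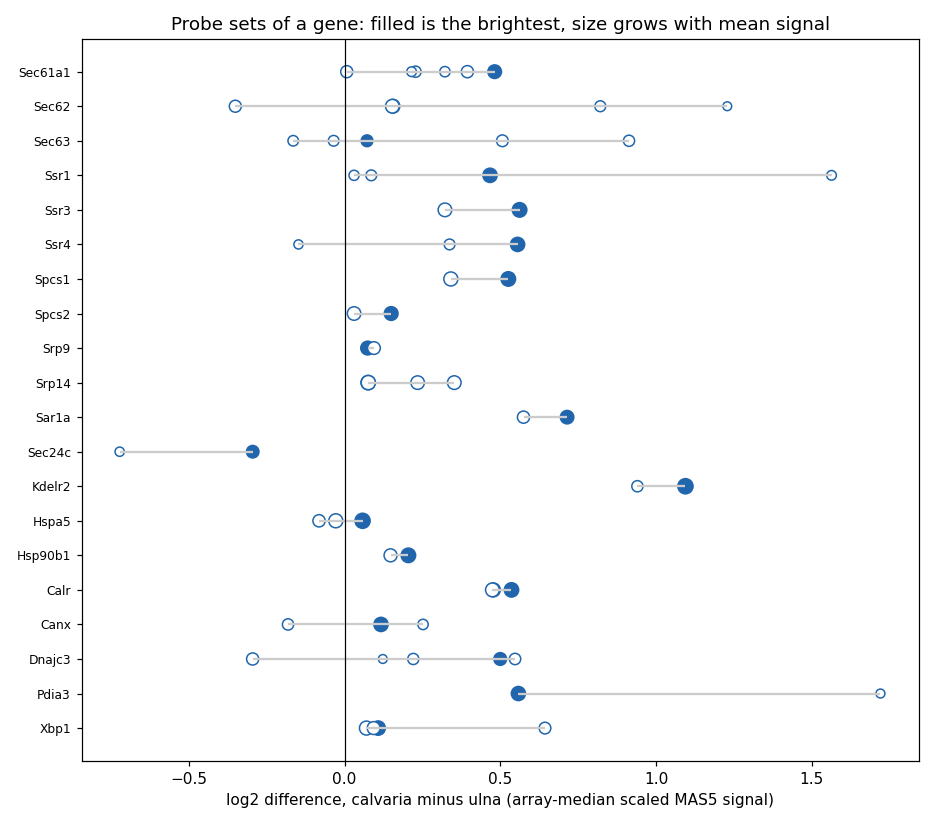
The log2 difference, calvaria minus ulna, of every tested probe set of the 20 ER genes with several; the filled point is the probe set with the highest mean signal, which stands for the gene, and point size grows with mean signal. Probe sets lie on both sides of 0 for Sec62, Sec63, Ssr4, Hspa5, Canx and Dnajc3.

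Beyond these genes, 119 others of ER targeting, glycosylation, folding, ER-Golgi transport, ER stress and degradation were listed by function, also with earlier results of these data known. Of these, 115 were tested. Against ulna, 17 (14.8%) were called higher and 4 (3.48%) lower in mandible, where 11.0% of all tested genes were called each way, and 15 (13.0%) higher and 1 (0.870%) lower in calvaria, where 8.43% of all tested genes were called higher and 4.59% lower. At the adjusted p alone, 53 (46.1%) were higher and 25 (21.7%) lower in mandible, beside 20.0% and 28.2% of all tested genes, and 49 (42.6%) higher and 9 (7.83%) lower in calvaria, beside 16.0% and 18.5%. Their median log2 difference was 0.21 in mandible and 0.23 in calvaria, and that of all tested genes was -0.09 in mandible and -0.05 in calvaria. In mandible against calvaria limma called 0 higher and 0 lower. At an unadjusted p under 0.05, 11 were higher and 28 lower, and the share of all tested genes at that limit was not counted.

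Folding enzymes and collagen helpers held most of the genes called higher. Of 26 other folding enzymes and chaperones, 8 (30.8%) were called higher in each skull bone, beside 11.0% of all tested genes in mandible and 8.43% in calvaria. At the adjusted p alone, 14 of the 26 were higher and 5 lower in mandible, where 20.0% of all tested genes were higher and 28.2% lower. In calvaria 12 were higher and 1 lower, where 16.0% of all tested genes were higher and 18.5% lower. The prolyl isomerase Fkbp7 had signals of 1172 and 1092 in mandible, 1158 and 1179.76 in calvaria, and 151 and 131 in ulna. The log2 difference was 2.89 (adjusted p = 5.41e-09) in mandible and 2.98 (adjusted p = 2.15e-09) in calvaria. Fkbp14, which acts on collagens, gave 2.77 (adjusted p = 1.53e-07) in mandible and 2.68 (adjusted p = 2.22e-07) in calvaria. Fkbp11 gave 2.10 (adjusted p = 0.000917) in mandible and 2.54 (adjusted p = 0.000418) in calvaria. The isomerase Pdia2 was called lower in mandible (-1.65, adjusted p = 0.0211), but its signals of 23.1 and 10.7 there lay below the array median, and it was at least 1.48-fold higher in ulna.

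Serpinh1 (Hsp47), the chaperone dedicated to collagen, had signals of 3464 and 3351 in mandible, 3453 and 3293 in calvaria, and 265 and 277 in ulna. It was higher by 3.54 ± 0.07 (SE, adjusted p = 5.13e-10) in mandible and 3.56 ± 0.07 (adjusted p = 1.11e-10) in calvaria. Creb3l1 (Oasis), an ER-anchored transcription factor needed for type I collagen in mouse bone, had signals of 313 and 339 in mandible, 295 and 336 in calvaria, and 41.9 and 62.6 in ulna, and was higher by 2.55 (adjusted p = 1.63e-06) in mandible and by 2.54 (adjusted p = 2.45e-06) in calvaria. Its relative Creb3l2, which acts on Sec23a in mouse cartilage, was higher by 1.44 (adjusted p = 2.65e-06) in mandible and by 0.50 (adjusted p = 0.00662) in calvaria. Sec16b, an organiser of ER exit sites, gave 0.96 (adjusted p = 0.0103) in mandible and 1.04 (adjusted p = 0.00998) in calvaria. Mia3 (Tango1), which loads collagen into COPII carriers, gave 0.13 (adjusted p = 0.338) in mandible and 0.36 (adjusted p = 0.0209) in calvaria. Across the 11 tested genes of collagen export and folding, 4 passed the test as higher and 5 as lower in mandible. There 20.0% of all tested genes were higher and 28.2% lower. In calvaria 5 passed as higher and 2 as lower, where 16.0% of all tested genes were higher and 18.5% lower. Their median log2 difference was -0.26 in mandible and 0.05 in calvaria, so the list as a whole was not raised as its called genes were.

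The COPI coat, which returns vesicles from the Golgi and carries the KDEL receptors with their cargo, passed the test as higher for 9 of 12 genes in mandible and 8 of 12 in calvaria, with 0 lower. Copz2 led, with signals of 529 and 551 in mandible, 485 and 528 in calvaria, and 68.2 and 77.2 in ulna. Its log2 difference was 2.78 (adjusted p = 3.60e-08) in mandible and 2.73 (adjusted p = 3.23e-08) in calvaria. Among 18 cargo receptors and tethers, 11 were higher and 2 lower in mandible, and 10 higher and 0 lower in calvaria. Beside both lists, 20.0% of all tested genes were higher and 28.2% lower in mandible, and 16.0% and 18.5% in calvaria. Ergic1 was higher by 1.41 (adjusted p = 0.000104) in mandible and by 1.53 (adjusted p = 9.63e-05) in calvaria. The SNARE Sec22b was higher by 1.20 (adjusted p = 4.87e-06) in mandible and by 0.75 (adjusted p = 0.000280) in calvaria. The cargo receptor Lman1 (Ergic53) was higher by 0.84 (adjusted p = 5.51e-05) in mandible and by 0.72 (adjusted p = 0.000307) in calvaria.

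Of 12 tested genes of the oligosaccharyltransferase, which adds N-glycans, 6 passed the test as higher and 2 as lower in mandible. In calvaria 7 passed as higher and 0 as lower. The list median was 0.28 in mandible and 0.39 in calvaria. Among them, Ostc had signals of 1807 and 1601 in mandible, 1573 and 1360.24 in calvaria, and 455 and 480.5 in ulna. Its log2 difference was 1.75 (adjusted p = 1.52e-07) in mandible and 1.57 (adjusted p = 3.84e-07) in calvaria. Tusc3, a subunit of the same complex, was higher by 1.81 (adjusted p = 4.21e-06) in mandible and by 0.92 (adjusted p = 0.000993) in calvaria. Srprb, of the docking receptor for the signal recognition particle, was higher by 1.09 (adjusted p = 0.00141) in mandible and by 1.03 (adjusted p = 0.00333) in calvaria. Of the 10 tested genes on its list of targeting and translocation, 5 passed as higher and 3 as lower in mandible. In calvaria 2 of the 10 passed as higher and 1 as lower.

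The list of ER stress signalling holds the sensors, factors and phosphatase subunits of the unfolded protein response. Of 12 tested genes, 1 was higher and 3 lower in mandible, and 1 higher and 3 lower in calvaria, with a median log2 difference of -0.19 in mandible and -0.21 in calvaria. The share that was lower, 25.0% in each bone, stood beside 28.2% of all tested genes in mandible and 18.5% in calvaria. Higher were 20.0% of all tested genes in mandible and 16.0% in calvaria. Ppp1r15a (Gadd34), which reverses the translational arrest of the stress response, had signals of 218 and 166 in mandible, 309 and 310.4 in calvaria, and 685 and 697 in ulna. It fell by 1.98 in mandible (SE 0.13, adjusted p = 5.39e-07) and by 1.23 in calvaria (SE 0.13, adjusted p = 3.14e-05). Its constitutive counterpart Ppp1r15b fell by 1.53 in mandible (adjusted p = 8.41e-07) and by 1.00 in calvaria (adjusted p = 3.52e-05). For the 14 genes of ER-associated degradation, 3 were higher and 5 lower in mandible, and 4 higher and 2 lower in calvaria, with a median of -0.08 in mandible, or 0.01 to 0.04 under the other scalings, and 0.04 in calvaria.

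**Figure D5:**
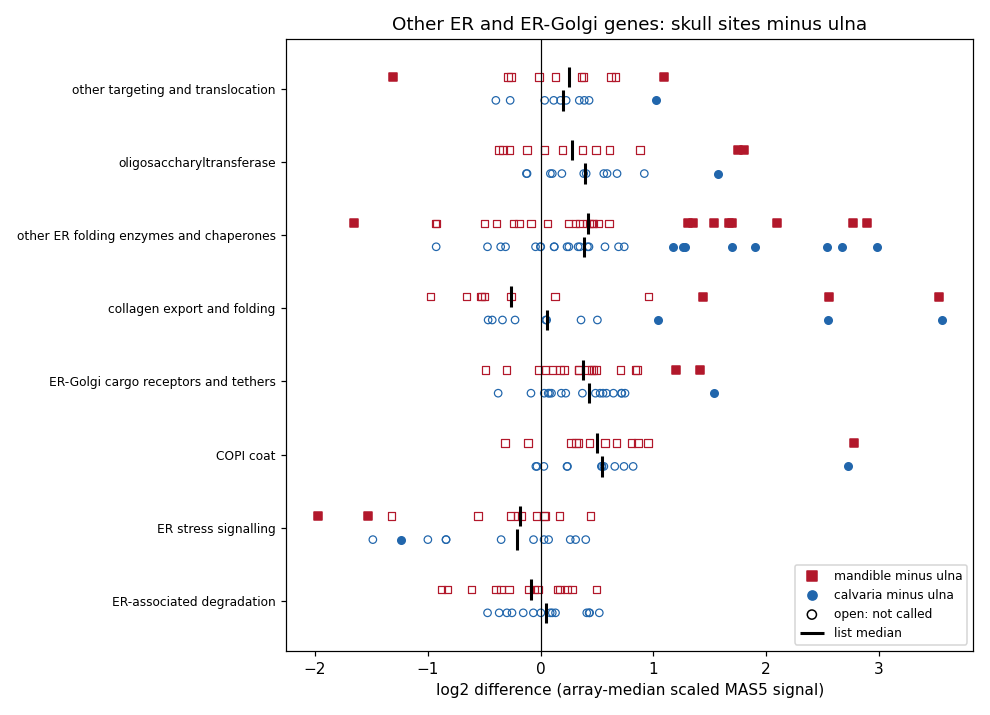
The log2 difference of 115 further ER and ER-Golgi genes, mandible minus ulna (red squares) and calvaria minus ulna (blue circles), by list; filled symbols passed an adjusted p of 0.05 and 2-fold, and black bars mark list medians. Serpinh1 stands at the right end at 3.54 and 3.56, and Ppp1r15a in mandible at the left end at -1.98.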

How the data were processed

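Gene expression was measured on 6 Affymetrix Mouse Genome 430 2.0 arrays of bone ground in liquid nitrogen and labelled in 1 cycle. The intensity values deposited by the authors are MAS5 signals (the submitters' processing notes name MAS5, with no version), scaled on each array to a 2% trimmed mean of 100. The rat arrays of the same paper were not analysed here.

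Probe sets were named from the platform's annotation, with symbols updated through a RefSeq gene table of GRCm38.p6: 34958 had 1 symbol, 932 several and 9211 none, and 64 control probe sets were left out. Dividing by the array median stood for the per chip step of the methods, and log2 was taken with no offset. Tested probe sets exceeded that median on 2 or more of the 6 arrays (25233, 55.9%), and the one with the highest mean over all arrays stood for its gene. In limma 3.58.1 (R 4.3.3), site means were fitted to all 6 arrays and variances were moderated with a trend in signal (3 residual and 7.67 prior degrees of freedom). Benjamini-Hochberg adjustment ran over all tested probe sets. The log2 standard deviation within a site had a median of 0.138 over these probe sets and 0.0633 over the 39 genes. Arrays of a site correlated at 0.952 to 0.956 and arrays of different sites at 0.797 to 0.862. The fit was tested on simulated data.

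The members and lists were chosen with earlier results of these data known. All members are named, and of the wider lists up to 3 called genes in each direction by the size of the difference, where the arrays of the compared sites did not overlap, and Creb3l1, Serpinh1, Mia3 and Lman1 whether called or not. Alternatives were 3 other scalings, 2 other filters, an offset of 0.25, no trend, only the 4 arrays of a comparison, a replicate block, each array left out, the adjusted p alone, and 2 other choices of probe set. Figures were made in Python 3.11.15 (matplotlib 3.10.9).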

Additional observations from a re-analysis of the deposited data

How the results depend on the processing

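At the adjusted p alone, the members counted as higher and lower were 19 and 5 in mandible against ulna, 22 and 2 in calvaria against ulna, and 3 and 6 in mandible against calvaria, and the wider genes 53 and 25, 49 and 9, and 5 and 18 in the same comparisons. With an offset of 0.25, 3 members were called higher in calvaria against ulna, since Sec31a (0.98) and Pdia4 (0.95) fell under 2-fold. With the signals as deposited, quantile normalization or scaling to the 75th percentile, 0 members were called lower in mandible against ulna. Against the signals as deposited, division by the array median gave a median over all tested probe sets of -0.13 in that comparison, in place of -0.02. Over all genes, the adjusted p alone gave 1969 higher and 2275 lower in calvaria against ulna, and 2245 higher and 1831 lower with the signals as deposited. With the probe set of largest difference, 2 wider genes were called lower in calvaria against ulna. Leaving out each array in turn, members called higher numbered 2 to 5 in calvaria against ulna (2 without calvaria replicate 2) and 3 to 4 in mandible against ulna. Wider genes called lower numbered 1 to 3 in calvaria against ulna (3 without calvaria replicate 1, 2 without calvaria replicate 2 or ulna replicate 1) and 4 to 6 in mandible against ulna, and those called higher in mandible against calvaria 0 to 2. The lone array of a site was then assumed to vary like the other sites. The cause of these changes was not tested.

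The labels do not say whether the replicate numbers pair the samples, and the correlations given next cannot settle it. Deviations of same-numbered arrays from their site means correlated at -0.012 for mandible with ulna, 0.0058 for calvaria with ulna and -0.0048 for mandible with calvaria. With the replicate number as a block, the members called higher and lower stayed at 4 and 1 in mandible against ulna, 5 and 0 in calvaria against ulna, and 0 and 0 in mandible against calvaria, and the wider genes at 17 and 4, 15 and 1, and 0 and 0. Over 17 settings, the member genes gave 661 values in each comparison. In mandible against ulna 6 lost the call, 1 gained it and 21 uncalled values changed sign. In calvaria against ulna 7 lost the call, 2 gained it and 3 uncalled values changed sign. In mandible against calvaria no member was called under any of these settings, and 27 uncalled values changed sign. Signals below the array median, as for Kdelr3 and Pdia4 in ulna, limit these ratios to bounds.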

Other observations

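Of the wider genes, 97 had a RefSeq promoter of the same length. The core TGACGTGG stood in 9 of them (Arf1, Copb1, Copb2, Gbf1, Sec16b, Stx5a, Txndc5, Ube2j1 and Vcp), the first ER stress response element in 4 (Creld2, Derl3, Ero1b and Syvn1) and the second in 2 (Herpud1 and Krtcap2). Against ulna, the 9 genes with the core ran from -0.39 (Vcp) to 1.69 (Txndc5) in mandible and from -0.37 (Vcp) to 1.28 (Txndc5) in calvaria. In mandible Copb1 (0.95), Sec16b (0.96), Copb2 (0.43), Stx5a (0.34) and Arf1 (0.27) also passed the test as higher, Vcp passed as lower, and Gbf1 (0.31) and Ube2j1 (-0.11) did not pass. In calvaria the same genes passed in the same directions. The 4 genes with the first element ran from -0.93 (Ero1b) to -0.02 (Derl3) in mandible and from -0.31 (Ero1b) to 0.35 (Creld2) in calvaria, and of the 2 with the second, Herpud1 gave -0.35 in mandible and 0.13 in calvaria, and Krtcap2 gave 0.49 in mandible and 0.59 in calvaria. The matches were not tested against the values.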
